A study of Mus musculus with 47 samples.

Results

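Fezf2 is a zinc finger transcription factor, and Apoc3, Fabp9, Resp18, Maoa, Ttr, Calb1 and Nol4 are genes of other tissues that have been reported to need Fezf2 rather than Aire for their expression in the thymus. These 8 genes were followed across all groups of a bulk RNA-seq series of mouse medullary thymic epithelial cells (mTECs). They were taken by name from the 53402 genes listed in both the adult and the neonatal count table, and all 8 passed the filter on low counts in both tables.

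mTECs show developing T cells proteins that otherwise belong to distant organs, so that T cells reacting to them are removed or diverted. Aire, a nuclear protein expressed in mature mTECs, drives a large set of these tissue-restricted antigens. Fezf2, first described in forebrain neurons, supports another set, and it binds the chromatin remodeler Chd4, the motor of the NuRD complex.

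The cells were sorted from C57BL/6 thymus as CD45-negative, EpCAM-positive and Ly51-negative, and then divided into mTEChi and mTEClo by high or low surface MHC class II, of which mTEChi holds the more mature cells. Adult mice were 4 to 6 weeks old and gave 23 libraries, 7 of WT and 4 of AireKO in mTEChi, and 8 of WT and 4 of AireKO in mTEClo. Neonates of 1 to 6 days gave 24 libraries. Their mTEChi came as 5 Ctrl, 3 EEDcKO, 3 AireKO and 3 AireEEDdKO libraries, and their mTEClo as 3 Ctrl, 4 EEDcKO and 3 AireEEDdKO libraries. In mTEChi, both AireKO and AireEEDdKO came from pups of 4, 6 and 4 days. Ctrl came from pups of 6, 6, 2 to 3, 2 to 3 and 1 days, and EEDcKO from pups of 6, 2 to 3 and 1 days. Aire genotype and age were thus partly mixed in neonatal mTEChi. EEDcKO mice carried floxed EED and Foxn1-Cre, which acts in thymic epithelium from early development on and therefore in cortical as well as medullary cells. PRC2, the Polycomb complex that cannot work without EED, places the H3K27me3 mark found on silenced genes, and AireEEDdKO mice lacked both EED and Aire. The labels do not give the genotype of the neonatal Ctrl mice any further. All adult AireKO libraries came from male mice, and some neonatal libraries pooled pups of both sexes.

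The number of counts per library ran from 1602125 to 3938588 in adults and from 1578579 to 4817418 in neonates. Levels are given as CPM, counts scaled by library size and by TMM factors (trimmed mean of M values). A level under 1 CPM rests on 5 counts or fewer. In mTEChi the targeted genes followed the labels: Aire was 818 ± 56 CPM (SD, n = 7) in adult WT mTEChi against 29.3 ± 11.6 CPM (n = 4) in AireKO, and Eed was 29.1 ± 7.93 CPM (n = 5) in neonatal Ctrl mTEChi against 14.8 ± 4.63 CPM (n = 3) in EEDcKO. In neonatal mTEChi, Aire and Eed together summed to 487 to 844 CPM in Ctrl, 87.3 to 150 CPM in AireKO and 22.1 to 43.9 CPM in AireEEDdKO. Both were called lower in AireEEDdKO than in AireKO. In neonatal mTEClo EEDcKO against Ctrl neither was called, and 1 of these 2 genes passed lower. Epcam, the marker used in the sort, lay between 163 and 352 CPM in all 47 libraries, and 8 mTEC marker genes summed to 1859 to 4757 CPM, 8 thymocyte genes to 15.8 to 117 CPM, 5 myeloid genes to 25 to 391 CPM and 4 endothelium genes to 3.18 to 43.2 CPM. Higher sums were reached by 5 mesenchyme genes, at 54.1 to 765 CPM, and by 5 genes of cortical epithelium, at 179 to 2305 CPM. The cortical sum was 1464 to 2305 CPM in neonatal mTEClo Ctrl. In 6 adult libraries, all 4 of mTEChi AireKO and replicates 3 and 4 of mTEClo AireKO, none of 37 mitochondrial genes had a count, so that in adult mTEChi the genotype and this kind of library cannot be told apart. Each test below is edgeR's quasi-likelihood F-test with Benjamini-Hochberg adjustment over all tested genes of the table. A gene passed at an adjusted p under 0.05 and was called where the change was also at least 2-fold.

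Fezf2 (ENSMUSG00000021743) lies on the minus strand of chromosome 14 at 12342094 to 12348189 of GRCm38, in 3047 exonic bases. The antigen genes lie on other chromosomes: Apoc3 on chromosome 9 (46232933 to 46235636), Fabp9 on 3 (10193621 to 10197283), Resp18 on 1 (75272199 to 75278415), Maoa on X (16619698 to 16687818), Calb1 on 4 (15881264 to 15908064), and Ttr (20665280 to 20674321) and Nol4 (22693181 to 23041653) on 18. Fabp9 shares 344 of its 649 exonic bases with Gm37389, which had 0 counts in both tables. Resp18 shares 40 exonic bases with the antisense gene Gm28902, which had 2 and 3 counts in all.

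PRC2 is known to gather at promoters rich in CpG dinucleotides, and 3 of the 8 genes had an entry in the RefSeq promoter set (GRCm38.p6). Their sequences upstream of the start are shown, 5′ to 3′ on the gene's strand, because the neonatal comparisons remove EED, and of these 3 genes Resp18 was called lower in EEDcKO mTEChi while Fezf2 and Maoa did not pass. Capitals mark each CG pair.
Fezf2: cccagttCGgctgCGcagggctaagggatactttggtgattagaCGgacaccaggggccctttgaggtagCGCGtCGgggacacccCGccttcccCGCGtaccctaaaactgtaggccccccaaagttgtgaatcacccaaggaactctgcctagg
Resp18: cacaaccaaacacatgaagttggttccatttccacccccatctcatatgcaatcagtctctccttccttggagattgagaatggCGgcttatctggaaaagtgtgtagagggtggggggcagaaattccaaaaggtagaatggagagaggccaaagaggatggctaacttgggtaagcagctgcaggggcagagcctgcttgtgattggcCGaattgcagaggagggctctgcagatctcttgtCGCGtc
Maoa: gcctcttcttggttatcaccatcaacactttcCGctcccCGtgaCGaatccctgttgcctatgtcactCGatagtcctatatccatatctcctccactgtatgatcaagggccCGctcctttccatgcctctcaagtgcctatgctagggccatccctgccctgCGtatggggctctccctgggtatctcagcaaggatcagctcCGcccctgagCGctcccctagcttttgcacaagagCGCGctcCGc
The Fezf2 stretch is chr14:12345960-12346115, 156 bases that end where an annotated exon begins, and it lies inside the gene, since a longer annotated transcript starts further upstream. The Resp18 stretch is chr1:75278416-75278665 and the Maoa stretch chrX:16619448-16619697, each 250 bases directly before the start. In the whole window of 250 bases before the RefSeq start, Fezf2 has 14 CG pairs, Maoa 11 and Resp18 4. Of all 32851 promoters in the set, 29.4% hold at least as many CG pairs as Fezf2, 35.6% as many as Maoa and 62.2% as many as Resp18. The letters TATAAA occur in none of these 3 windows and in 7.59% of all promoters.

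Fezf2 was an abundant transcript in every group, and its level was called different between the adult fractions but not between the Aire genotypes. In adult mTEChi it ran from 236 to 302 CPM over the 7 WT libraries, with a median of 275 CPM. The 4 AireKO libraries were at 343, 312, 285 and 331 CPM. In adult mTEClo the 8 WT libraries ran from 87.3 to 143 CPM with a median of 130 CPM, and the 4 AireKO libraries were at 161, 162, 122 and 120 CPM. No mTEClo library reached the lowest mTEChi library, whereas the genotypes overlapped within each fraction. In bulk samples, fewer cells of a type and less RNA per cell cannot be told apart. Fezf2 was 2.25-fold higher in mTEChi than in mTEClo of WT (log2 1.17 ± 0.095 SE, adjusted p = 7.15e-12) and 2.27-fold higher in AireKO (log2 1.18 ± 0.13, adjusted p = 6.79e-09). Between AireKO and WT its log2 difference was 0.21 ± 0.11 in mTEChi (adjusted p = 0.115) and 0.20 ± 0.11 in mTEClo (adjusted p = 0.214), neither of which passed. The difference of these 2 Aire effects was 0.01 ± 0.16 on the log2 scale (adjusted p = 0.98). Within the mTEClo libraries that hold mitochondrial counts, Fezf2 passed at a log2 difference of 0.41 (adjusted p = 0.0456, range over all alternatives 0.0456 to 0.584).

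In neonates Fezf2 was again higher in mTEChi. The 5 Ctrl mTEChi libraries were at 242, 239, 152, 141 and 181 CPM, and the 3 Ctrl mTEClo libraries at 82.8, 88.0 and 64.1 CPM, a 2.41-fold difference (log2 1.27 ± 0.33, adjusted p = 0.00464). The 2 highest Ctrl mTEChi libraries were the 2 from pups of 6 days. EEDcKO mTEChi libraries were at 255, 217 and 290 CPM, AireKO at 323, 328 and 231 CPM and AireEEDdKO at 325, 311 and 228 CPM. These 3 mutant groups overlapped one another, and each overlapped Ctrl. Against Ctrl, the log2 difference was 0.42 ± 0.30 in EEDcKO (adjusted p = 0.303) and 0.62 ± 0.30 in AireKO (adjusted p = 0.124), and neither passed. With only the compared groups in the fit, the AireKO difference passed at log2 0.54 (adjusted p = 0.0312, range over all alternatives 0.0312 to 0.381). AireEEDdKO differed by -0.03 ± 0.34 from AireKO and by 0.18 ± 0.34 from EEDcKO, and the Aire by EED interaction was -0.45 ± 0.45 (adjusted p = 0.982, 0.745 and 0.689).

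Fezf2 ranged widely in neonatal mTEClo of EEDcKO, with 32.0, 66.1, 157 and 91.4 CPM in replicates 1 to 4, from pups of 2 to 3, 1, 6 and 4 days. The 157 CPM library was thus from the oldest pups, and the Ctrl mTEClo libraries came from pups no older than 3 days. The EEDcKO mean of 86.6 ± 52.8 CPM (SD, n = 4) did not differ detectably from the Ctrl mean of 78.3 ± 12.6 CPM (n = 3), with a log2 difference of 0.15 ± 0.33 (adjusted p = 0.765). AireEEDdKO mTEClo was at 236, 189 and 125 CPM, which overlapped EEDcKO, and Fezf2 was called 2.09-fold higher than in EEDcKO (log2 1.06 ± 0.32, adjusted p = 0.0398). That call was lost without any 1 of 5 libraries, EEDcKO replicate 1, 2 or 4 or AireEEDdKO replicate 1 or 2, with log2 differences of 0.79, 0.95, 1.08, 0.84 and 1.05 in that order, and the adjusted p ran from 0.000606 to 0.248 over all alternatives.

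**Figure D1:**
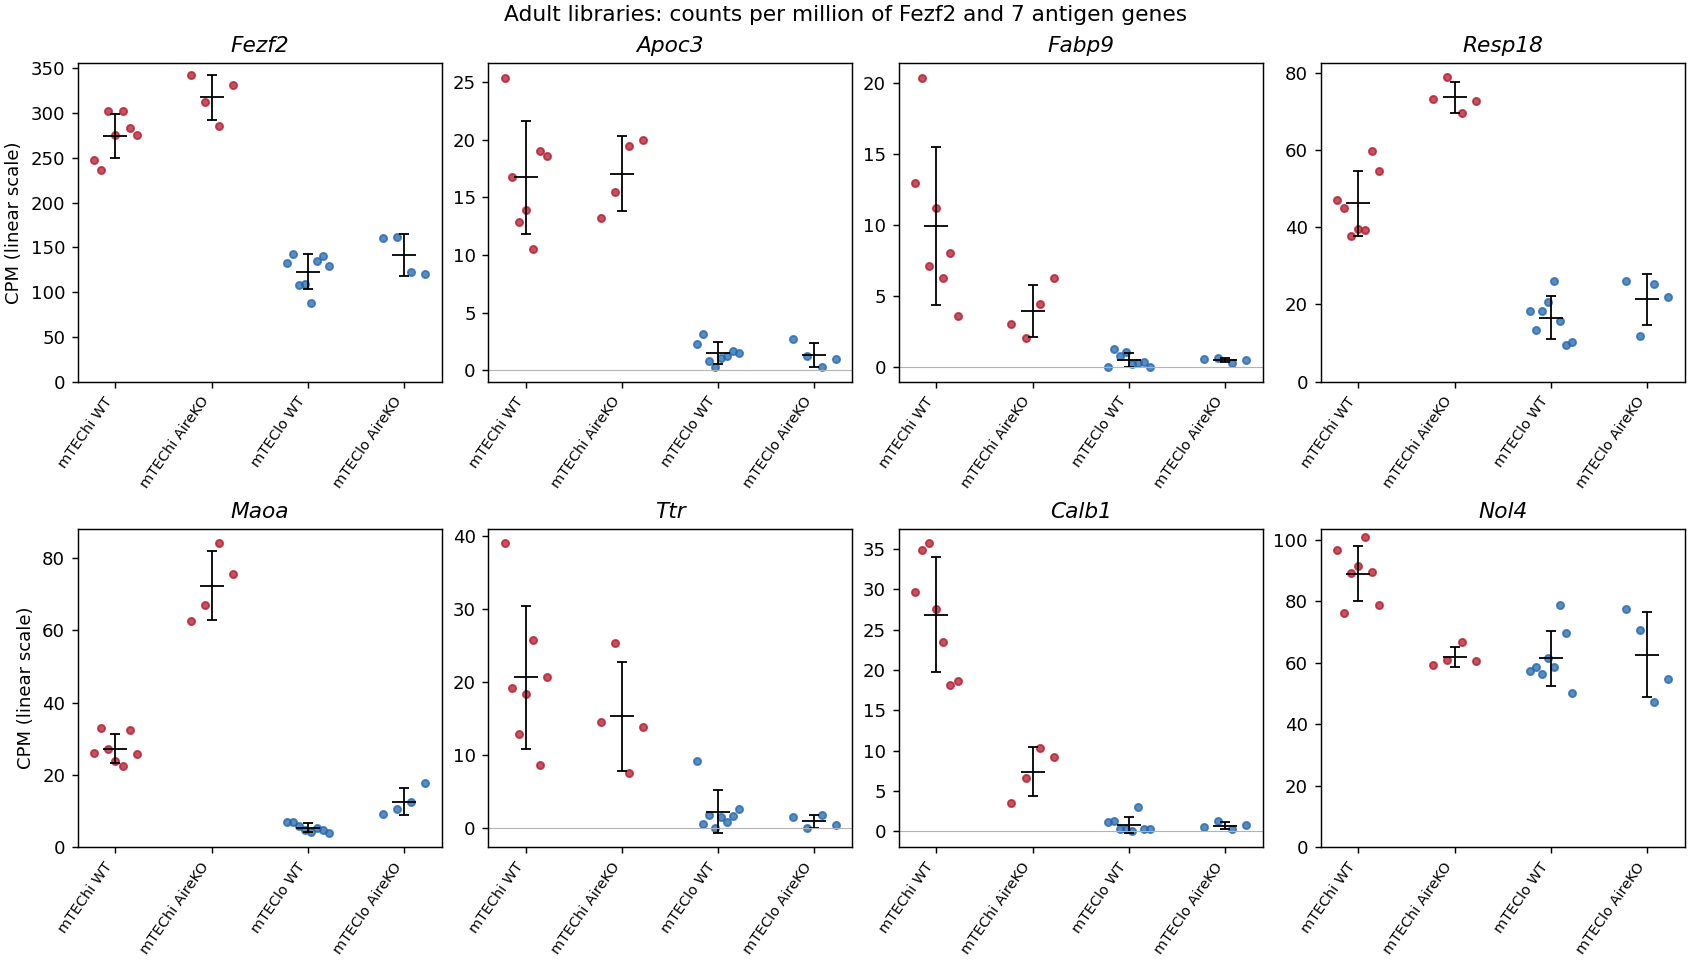
Level in CPM of each of the 8 genes (linear axis from 0) in every adult library, with points in red for mTEChi and blue for mTEClo, and the mean and SD of each group in black. Fezf2 lies between 236 and 343 CPM in all mTEChi libraries and between 87.3 and 162 CPM in all mTEClo libraries, while Maoa is at 62.7 to 84.2 CPM in mTEChi AireKO against 22.5 to 33.0 CPM in WT.

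Across the whole set, adult mTEChi carried more of these transcripts than mTEClo. In WT, 7 of the 8 genes were called higher in mTEChi and none lower, where 36.1% of all tested genes were called and 23.7% were called higher. In AireKO it was also 7 of 8, against 35.2% of all genes called and 18.5% called higher, and the same 7 genes were called in both genotypes, all but Nol4. The median log2 difference over the 8 genes was 2.86 in WT and 2.73 in AireKO, and over all tested genes it was 0 in both. Marker genes of other cell types differed between the fractions too. In adult WT, 8 of 8 enterocyte genes and 5 of 5 myeloid genes were called higher in mTEChi. The enterocyte sum was 492 to 739 CPM against 66.6 to 151 CPM in mTEClo. Of 6 tuft cell genes, 6 were called lower (212 to 326 against 1610 to 2084 CPM), where 12.4% of all genes were. Of 5 tested neuron genes 2 were called higher and 3 lower. Their part in these fraction differences was not tested.

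Between AireKO and WT, 3 of the 8 genes were called in adult mTEChi, 1 higher and 2 lower, against 23.4% of all tested genes called and 17.8% called lower. In adult mTEClo 1 of the 8 was called, against 8.3%. None of the 8 was called for a difference of the Aire effect between the fractions, where 13.7% of all genes were, and 1, Nol4, had an unadjusted p under 0.05, as 36.5% of all genes did (DESeq2 called 0 of the 8). With 8 genes, these counts show nothing particular to the set beside the shares of all genes.

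Maoa encodes monoamine oxidase A, the mitochondrial enzyme that degrades serotonin and noradrenaline. Of the 8 genes it had the smallest adjusted p for AireKO against WT in both adult fractions and against Ctrl in neonatal mTEChi. In adult mTEChi the WT libraries ran from 22.5 to 33.0 CPM with a median of 26.0 CPM, and the AireKO libraries were at 62.7, 67.1, 84.2 and 75.6 CPM. No AireKO library came near a WT library, and Maoa was 2.68-fold higher in AireKO (log2 1.42 ± 0.14, adjusted p = 1.82e-09). In adult mTEClo the WT libraries ran from 3.9 to 7 CPM with a median of 4.95 CPM, and the AireKO libraries were at 9.20, 10.6, 12.5 and 17.7 CPM. Here too the genotypes did not overlap, and Maoa was 2.56-fold higher in AireKO (log2 1.36 ± 0.19, adjusted p = 5.81e-06). Without the 2 mTEClo AireKO libraries that lack mitochondrial counts, the log2 difference was 0.95 ± 0.29 (adjusted p = 0.022, range over all alternatives 9.05e-09 to 0.022), which passed but was under 2-fold. The 2 left out were those at 12.5 and 17.7 CPM, from mice of 6 weeks.

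In neonatal mTEChi Maoa was at 21.9, 25.4, 19.3, 23.8 and 21.5 CPM in Ctrl and at 55.5, 80.6 and 50.9 CPM in AireKO, again with a gap between the groups and a 2.77-fold higher level (log2 1.47 ± 0.21, adjusted p = 3.63e-05). It was the only one of the 8 genes called in that comparison, in which 16.4% of all genes were called. Loss of EED left it at 24.2, 16.8 and 15.1 CPM in EEDcKO and did not pass (adjusted p = 0.355). In AireEEDdKO it was highest, at 103, 106 and 67.4 CPM. This was 5.02-fold above EEDcKO (log2 2.33 ± 0.25, adjusted p = 2.85e-06), and 1 AireEEDdKO library overlapped AireKO (adjusted p = 0.0943). Neonatal Ctrl mTEClo stood at 17.9, 21 and 19.1 CPM, overlapping Ctrl mTEChi (adjusted p = 0.516), whereas adult WT mTEChi was 5.27-fold above mTEClo (log2 2.40 ± 0.15, adjusted p = 3.49e-14). Whether the fractions differ more in adults was not tested, since the tables were fitted apart. In AireEEDdKO mTEClo, at 30.0, 27.7 and 24.8 CPM, Maoa lay above every EEDcKO library (23.2, 18.7, 10.9 and 12.9 CPM) and passed at 1.70-fold (log2 0.77 ± 0.23, adjusted p = 0.0377). That pass was lost without EEDcKO replicate 3 or 4 or AireEEDdKO replicate 1 or 2, at log2 differences of 0.60, 0.67, 0.71 and 0.76. It was also lost with age in days as a term (log2 0.73, adjusted p = 0.0601) and with only the groups compared (0.77, 0.199).

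Calb1 encodes calbindin, a calcium-binding protein of neurons, kidney and gut. In adult WT it had the largest fold between fractions of the 8 genes. WT mTEChi ran from 18.1 to 35.7 CPM with a median of 27.5 CPM, and WT mTEClo from 0 to 3.05 CPM with a median of 0.318 CPM. mTEChi was 33.9-fold higher (log2 5.08 ± 0.35, adjusted p = 2.68e-13). In AireKO mTEChi it fell to 3.51, 6.55, 10.3 and 9.19 CPM, all below the lowest WT library, a 3.53-fold decrease (log2 -1.82 ± 0.32, adjusted p = 2.44e-05). Marker genes of several other cell types were called lower in the same comparison, where 17.8% of all genes were called lower. With none of their list called higher, they were 3 of 5 tested neuron genes (summed level 141 to 181 CPM in WT libraries against 94.3 to 118 CPM in AireKO), 4 of 6 keratinocyte genes (211 to 337 against 89.2 to 155 CPM), 3 of 5 ciliated cell genes (170 to 284 against 76.7 to 104 CPM) and 5 of 6 tested thymocyte genes (83.9 to 117 against 43.5 to 57.3 CPM). Of 6 tuft cell genes 2 were called lower and 0 higher (212 to 326 against 106 to 202 CPM). Other lists went both ways: of 5 mesenchyme genes 3 were called lower and 1 higher, and of 5 myeloid genes 2 lower and 1 higher. The myeloid sum was 231 to 290 CPM in WT against 345 to 391 CPM in AireKO. Their part in the Calb1 decrease was not tested. The AireKO mTEClo libraries were at 0.541, 1.25, 0.298 and 0.728 CPM, 1 to 3 counts each, so that a change there was not detectable at this depth. The difference of the Aire effect between fractions was -1.63 ± 0.99 on the log2 scale and did not pass (adjusted p = 0.24). Without WT mTEClo replicate 6, the library at 3.05 CPM, it was -2.51 and passed (adjusted p = 0.0389, range over all alternatives 0.0389 to 0.529). In neonatal mTEChi the AireKO libraries stood at 15.8, 15.2 and 15.8 CPM, below all 5 Ctrl libraries (32.1, 22.5, 27.0, 24.8 and 25.3 CPM), but the difference did not pass (adjusted p = 0.305).

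Loss of EED on its own left Calb1 at 13.6, 15.7 and 57.6 CPM in mTEChi, 2 libraries below and 1 above all Ctrl libraries (adjusted p = 0.816). In AireEEDdKO mTEChi it was at 99.5, 112 and 55.8 CPM, above every AireKO library and 5.65-fold higher (log2 2.50 ± 0.56, adjusted p = 0.00341). Against EEDcKO it was 2.99-fold higher (log2 1.58 ± 0.52, adjusted p = 0.0297), with 1 library of each group overlapping. This call was lost without EEDcKO replicate 1 or 2 or AireEEDdKO replicate 1 or 2, at log2 differences of 1.29, 1.20, 1.49 and 1.38, and with age in days as a term at 1.59 (adjusted p = 0.0533, range over all alternatives 0.00298 to 0.162). The interaction of Aire and EED was 2.33 ± 0.74 on the log2 scale and did not pass (adjusted p = 0.107). It passed without EEDcKO replicate 3, the library at 57.6 CPM (log2 3.30, adjusted p = 0.0376), with no filter on low counts (2.32, 0.0109) and with only the compared groups (2.37, 0.0278), and the adjusted p ran from 0.0109 to 0.229 over all alternatives. In mTEClo the AireEEDdKO libraries were at 22.1, 26.3 and 3.24 CPM and the EEDcKO libraries at 3.37, 3.95, 6.61 and 0.505 CPM. Calb1 was called 4.61-fold higher (log2 2.206 ± 0.58, adjusted p = 0.0207), but 1 AireEEDdKO library lay within the EEDcKO range, and the call was lost without EEDcKO replicate 1 or 4 or AireEEDdKO replicate 1 or 2 (log2 2.17, 1.82, 2.01 and 1.72). It was also lost with a replicate block (log2 2.07, adjusted p = 0.0669) and with only the groups compared (2.24, 0.192). Of 6 neuron genes, 3 were called higher and 0 lower in this mTEClo comparison, where 3.45% of all genes were called higher, with a sum of 235 to 294 CPM in AireEEDdKO against 156 to 196 CPM in EEDcKO. Their part in the Calb1 difference was not tested.

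Resp18 encodes a protein of the secretory granules of endocrine and neuroendocrine cells. Per kilobase of exon it came next to Fezf2 in adult WT mTEChi, with mean levels of 44.7 and 90.1 CPM per kilobase. Ttr (17.4), Apoc3 (16.5), Nol4 (15.7) and Fabp9 (15.3) were close to one another on that scale, and Maoa (6.53) and Calb1 (5.54) were lowest. Adult WT mTEChi ran from 37.8 to 59.7 CPM with a median of 45.0 CPM, and AireKO was at 73.3, 79.0, 69.5 and 72.7 CPM, all above WT. This rise of 1.59-fold passed but was under 2-fold (log2 0.67 ± 0.18, adjusted p = 0.00232). In mTEClo the genotypes overlapped, at 9.40 to 26.0 CPM in WT with a median of 17.0 CPM and at 26.0, 11.9, 25.3 and 21.9 CPM in AireKO.

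In neonatal mTEChi Resp18 fell with the loss of EED when Aire was present. Ctrl libraries were at 19.7, 17.9, 28.9, 23.2 and 21.5 CPM and EEDcKO libraries at 8.05, 8.31 and 5.35 CPM, with no overlap and a 3.11-fold decrease (log2 -1.64 ± 0.47, adjusted p = 0.0107). Without EEDcKO replicate 3 the decrease did not pass (log2 -1.44, adjusted p = 0.0606, range over all alternatives 0.000429 to 0.0606). AireKO libraries were at 56.2, 31.0 and 33.1 CPM, all above Ctrl, but the difference did not pass (adjusted p = 0.133). AireEEDdKO was at 54.7, 53.1 and 32.7 CPM, within the AireKO range and 6.40-fold above EEDcKO (log2 2.68 ± 0.51, adjusted p = 0.000716). The interaction, which is the effect of EED loss without Aire less that with Aire, was 1.86 ± 0.65 on the log2 scale and did not pass (adjusted p = 0.139). It passed with no filter on low counts (adjusted p = 0.0444) and with only the compared groups (adjusted p = 0.0135), and the range over all alternatives was 0.0135 to 0.283. In mTEClo AireEEDdKO stood at 35.3, 22.6 and 16.7 CPM, above all EEDcKO libraries at 0.673, 2.16, 7.25 and 0 CPM and 8.77-fold higher (log2 3.13 ± 0.50, adjusted p = 0.000541). With only the groups compared, this did not pass (log2 3.19, adjusted p = 0.122, range over all alternatives 1.19e-08 to 0.122). The Ctrl mTEClo libraries were at 6.08, 3.86 and 3.94 CPM. Of 8 endocrine marker genes examined beside Resp18, 4 were called lower and 0 higher in adult mTEChi AireKO against WT, where Resp18 passed higher. In that comparison 17.8% of all genes were called lower. Another 2 of the 8 passed higher under 2-fold, and the summed level was 278 to 412 CPM in AireKO against 242 to 315 CPM in WT. Of the 7 tested in neonates, none was called in EEDcKO mTEChi against Ctrl, and their summed level ran from 186 to 244 CPM there against 185 to 273 CPM in Ctrl. From EEDcKO to AireEEDdKO, 3 were called lower and 0 higher in mTEChi, where 8.36% of all genes were called lower, and 2 lower and 2 higher in mTEClo (1.85% of all genes lower and 3.45% higher). Their part in the Resp18 differences was not tested.

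**Figure D2:**
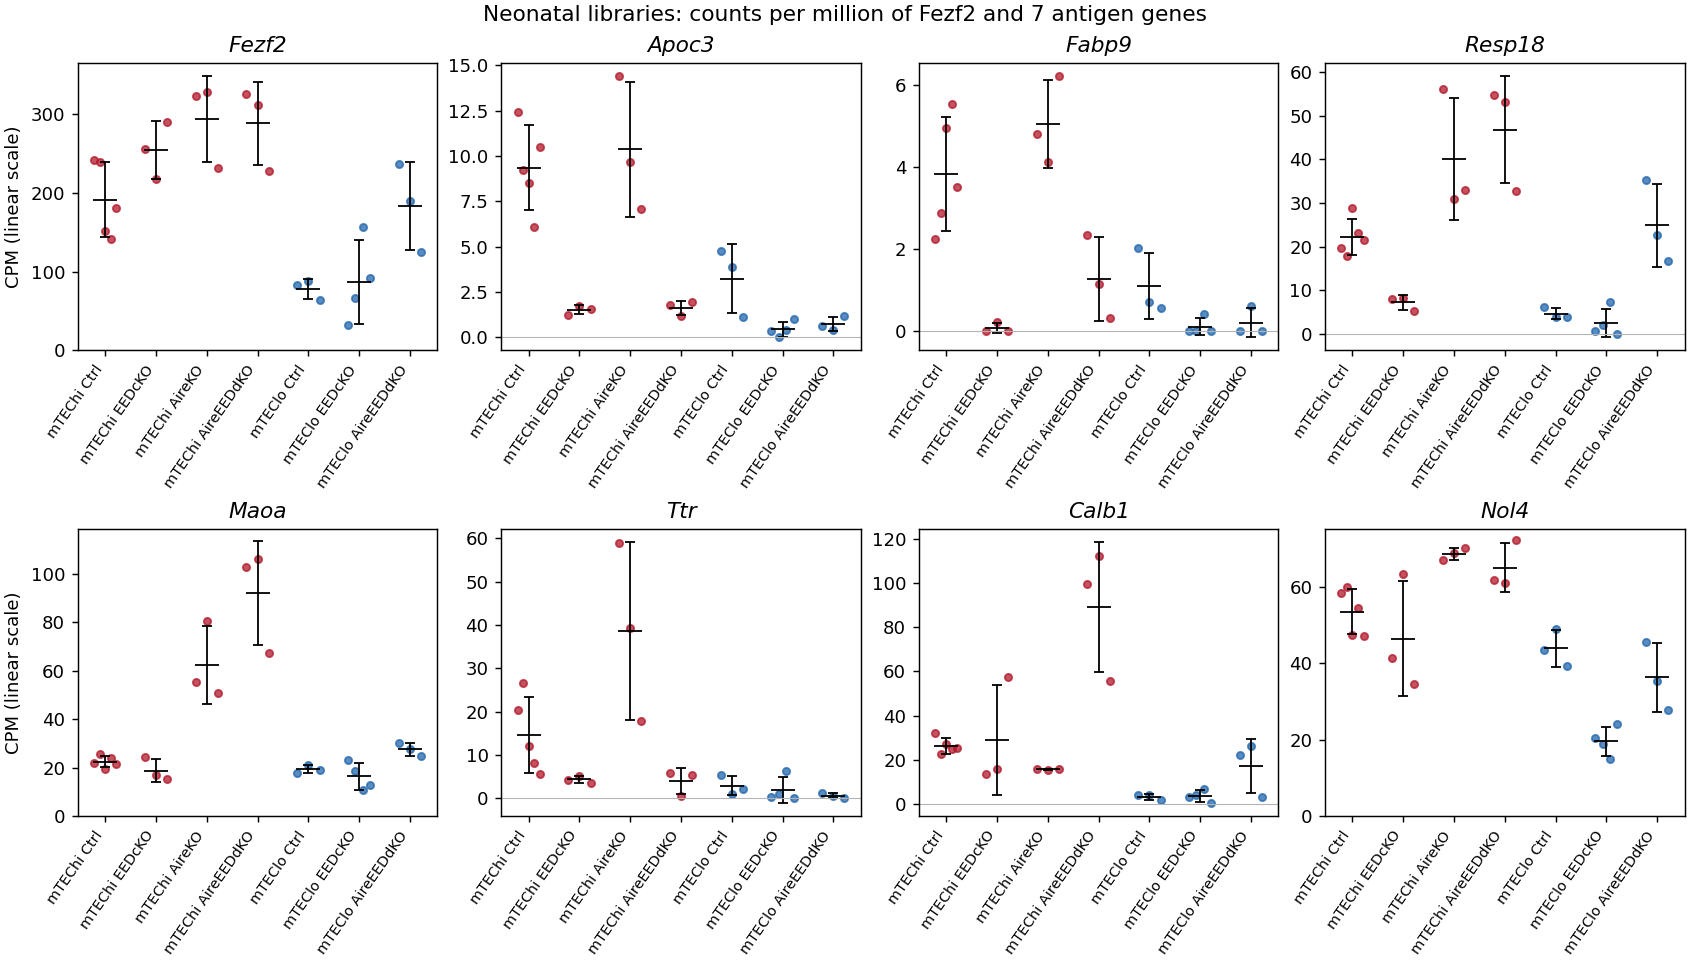
Level in CPM of each of the 8 genes (linear axis) in every neonatal library, with points in red for mTEChi and blue for mTEClo, and the mean and SD of each group in black. Apoc3 is at 1.16 to 1.92 CPM in all 6 EED-deficient mTEChi libraries and at 6.07 to 14.4 CPM in all 8 with EED, while Fezf2 overlaps between these groups.

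Loss of EED lowered a further pair of genes in both fractions. In neonatal mTEChi, EEDcKO against Ctrl gave 3 of the 8 genes called, all lower, against 13.9% of all genes called and 5.4% called lower. In mTEClo it was also 3 of 8, all lower, against 15.7% called and 6.22% called lower. Apoc3 and Fabp9 were among the 3 in each fraction, with Resp18 in mTEChi and Nol4 in mTEClo. The summed level of 5 mesenchyme genes was also higher in EEDcKO mTEChi, at 483 to 765 CPM against 233 to 307 CPM in Ctrl, and its part in these decreases was not tested.

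Apoc3 encodes an apolipoprotein of triglyceride-rich lipoproteins made by liver and intestine. Neonatal mTEChi Ctrl libraries were at 12.4, 9.24, 8.53, 6.07 and 10.5 CPM, and EEDcKO libraries at 1.24, 1.75 and 1.57 CPM, a 5.72-fold decrease with no overlap (log2 -2.52 ± 0.44, adjusted p = 0.000197). AireKO libraries were at 14.4, 9.64 and 7.06 CPM, within and just above the Ctrl range (adjusted p = 0.906), and AireEEDdKO libraries at 1.77, 1.16 and 1.92 CPM. The decrease with EED loss was therefore present on the Aire-deficient background too, at 5.93-fold (log2 -2.57 ± 0.51, adjusted p = 0.00108). In mTEClo the Ctrl libraries were at 4.73, 3.86 and 1.13 CPM, the EEDcKO libraries at 0.337, 0, 0.426 and 1.01 CPM and the AireEEDdKO libraries at 0.631, 0.411 and 1.16 CPM. The EEDcKO decrease was 6.64-fold (log2 -2.73 ± 0.56, adjusted p = 0.000759), on 0 to 4 counts per EEDcKO library. In adults Apoc3 was at 10.5 to 25.4 CPM in WT mTEChi with a median of 16.8 CPM and at 13.2, 15.5, 19.5 and 20 CPM in AireKO, which overlapped (adjusted p = 0.84). It was 12.4-fold lower in WT mTEClo (log2 difference 3.63 ± 0.29, adjusted p = 3.82e-12).

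Apoc3 is itself expressed by enterocytes. Of 8 enterocyte marker genes (Hnf4a, Hnf4g, Apoa1, Apoa4, Apob, Fabp1, Fabp2 and Vil1), 5 were called lower and 0 higher in adult mTEChi AireKO against WT (17.8% of all genes lower), and 4 lower and 0 higher in neonatal mTEChi EEDcKO against Ctrl (5.4% of all genes lower), with median log2 differences of -1.83 and -1.72. Their summed level in adult mTEChi lay between 492 and 739 CPM in WT libraries and between 199 and 293 CPM in those of AireKO, where Apoc3 overlapped. In neonatal mTEChi the sum was at least 340 CPM in every Ctrl library, with a median of 436 CPM, and 77.6 to 256 CPM in EEDcKO. From AireKO to AireEEDdKO, 4 were called lower and 0 higher (2.78% of all genes lower), and the sum went from 251 to 518 CPM to 98.2 to 168 CPM. In mTEClo 5 were called lower and 0 higher in EEDcKO against Ctrl (6.22% of all genes lower), and the sum was 84.4 to 191 CPM in Ctrl against 12.4 to 52.7 CPM. Between the fractions, 8 of 8 were called higher in mTEChi than in mTEClo, both in adult WT (23.7% of all genes higher) and in neonatal Ctrl (13.8%). Their part in the Apoc3 differences was not tested.

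Fabp9 encodes a fatty acid-binding protein of the testis. The neonatal mTEChi Ctrl libraries held 4, 5, 18, 21 and 15 counts (2.25, 2.89, 4.95, 5.54 and 3.51 CPM). The 3 EEDcKO libraries held 0, 1 and 0 counts, and the fitted decrease passed (log2 -4.78 ± 0.89, adjusted p = 0.000337). Pooled over libraries, 63 counts in Ctrl against 1 in EEDcKO give a ratio of rates of 39.9, with an exact 95% counting interval of 6.9 to 1600 that covers counting error only. AireKO libraries were at 4.8, 4.13 and 6.22 CPM, overlapping Ctrl (adjusted p = 0.61), and AireEEDdKO at 2.35, 1.16 and 0.321 CPM, below all AireKO libraries. The decrease from AireKO to AireEEDdKO was 4.50-fold (log2 -2.17 ± 0.70, adjusted p = 0.0352). With the replicate number as a block, which these 2 groups share, it was log2 -2.16 and did not pass (adjusted p = 0.0671, range over all alternatives 0.0284 to 0.193), and it was lost without any 1 of 5 libraries, all but AireEEDdKO replicate 1, at log2 -2.28 to -1.55. From EEDcKO to AireEEDdKO the fitted difference was 2.99 ± 1.19 and did not pass (adjusted p = 0.0715), on 1 count against 7. In mTEClo the Ctrl libraries held 6, 2 and 1 counts and the EEDcKO libraries 0, 0, 2 and 0. That decrease passed (log2 -2.76 ± 0.97, adjusted p = 0.0333), but the pooled ratio of 8.63 has a counting interval of 1.79 to 82.1, and the call was lost without Ctrl replicate 1 or EEDcKO replicate 1, 2 or 4 (log2 -2.004, -2.50, -2.51 and -2.40).

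In adult mTEChi Fabp9 ran from 3.57 to 20.4 CPM in WT with a median of 8.07 CPM and was at 3.07, 2.05, 4.45 and 6.27 CPM in AireKO, with overlapping ranges. It was called 2.36-fold lower (log2 -1.24 ± 0.38, adjusted p = 0.0075). With age in weeks as a term the difference was -0.69 and did not pass (adjusted p = 0.216, range over all alternatives 0.000535 to 0.216). The 2 highest WT libraries, at 20.4 and 13 CPM, came from mice of 4 weeks, and the 2 highest AireKO libraries came from mice of 6 weeks. In mTEClo Fabp9 held 0 to 4 counts per library, and mTEChi exceeded mTEClo 17.8-fold in WT (log2 4.16 ± 0.42, adjusted p = 8.15e-10).

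Nol4 encodes a nucleolar protein known mainly from brain and testis. It was the only gene of the 8 not called between the adult fractions in either genotype. WT mTEChi ran from 76.2 to 101 CPM with a median of 89.7 CPM, WT mTEClo from 50.1 to 79.0 CPM with a median of 58.7 CPM, and mTEChi was 1.45-fold higher (log2 0.54 ± 0.099, adjusted p = 2.4e-05). In AireKO mTEChi it was at 59.2, 61.0, 66.8 and 60.6 CPM, below every WT library, a 1.44-fold decrease (log2 -0.53 ± 0.12, adjusted p = 0.000706). The marker genes of other cell types that differed in this comparison stand beside Calb1 above, and their part in the Nol4 decrease was not tested either. AireKO mTEClo was at 77.4, 70.8, 47.4 and 54.9 CPM and overlapped WT. The difference of the Aire effect between fractions was -0.52 ± 0.17 and passed under 2-fold (adjusted p = 0.0256). It was lost with male libraries alone (-0.39, adjusted p = 0.219), with a replicate block (-0.48, adjusted p = 0.0545), and without mTEClo AireKO replicate 1 or 2 or mTEChi AireKO replicate 1 (-0.41, -0.47 and -0.50), and its adjusted p over all alternatives ran from 0.00311 to 0.219. In mTEClo AireKO the 2 libraries without mitochondrial counts were the 2 lower ones.

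In neonatal mTEClo Nol4 was at 43.6, 49.1 and 39.4 CPM in Ctrl and at 20.5, 19.0, 14.9 and 24.0 CPM in EEDcKO, with a gap between them and a 2.26-fold decrease (log2 -1.17 ± 0.20, adjusted p = 0.000119). AireEEDdKO, at 45.7, 35.5 and 27.8 CPM, overlapped Ctrl and lay above every EEDcKO library, 1.85-fold higher (log2 0.89 ± 0.19, adjusted p = 0.00662), a pass lost without AireEEDdKO replicate 1 (log2 0.70, adjusted p = 0.0806) and with only the groups compared (log2 0.90, adjusted p = 0.127). Over all alternatives this adjusted p ran from 0.000512 to 0.127. In mTEChi the EEDcKO libraries were at 41.5, 63.4 and 34.6 CPM and spanned the Ctrl range of 47.3 to 60.1 CPM (adjusted p = 0.478). Genes of cortical thymic epithelium differed in the same mTEClo comparison: 4 of 5 (Psmb11, Prss16, Ly75, Enpep and Ccl25) were called lower in EEDcKO, against 6.22% of all genes. Their sum was 1464 to 2305 CPM in Ctrl against 227 to 750 CPM. Of 5 mesenchyme genes, 4 were called higher, against 9.51% of all genes, and 1 passed lower under 2-fold. Their sum was 448 to 635 CPM in EEDcKO against 117 to 124 CPM. The part of these other cells in the Nol4 decrease was not tested.

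Ttr encodes transthyretin, the carrier of thyroid hormone and retinol made by liver and choroid plexus. It varied widely within groups. Neonatal mTEChi Ctrl libraries were at 20.3, 26.6, 12.1, 8.18 and 5.62 CPM, highest in the 2 libraries from pups of 6 days and lowest in that from pups of 1 day. EEDcKO libraries, from the same 3 ages, were at 4.34, 5.25 and 3.46 CPM, all below Ctrl, but the 3.11-fold lower level did not pass (log2 -1.64 ± 0.72, adjusted p = 0.0855). It passed with no filter on low counts (adjusted p = 0.0266), with a replicate block (0.0267) and with only the groups compared (0.0225), and the range over all alternatives was 0.0225 to 0.215. AireKO libraries, from pups of 4, 6 and 4 days, were at 58.9, 39.3 and 17.8 CPM (log2 1.45 ± 0.60 against Ctrl, adjusted p = 0.0731), which overlapped Ctrl. That difference passed without Ctrl replicate 2 (log2 1.78, adjusted p = 0.0396) or AireKO replicate 3 (1.85, 0.0472). Over all alternatives it ran from log2 0.786 to 1.845, with adjusted p from 0.0181 to 0.417. AireEEDdKO libraries were at 5.89, 0.578 and 5.45 CPM, below all AireKO libraries, and the decrease of 9.05-fold was called (log2 -3.18 ± 0.80, adjusted p = 0.00777).

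In adult mTEChi Ttr ran from 8.71 to 39.0 CPM in WT with a median of 19.2 CPM and was at 14.5, 25.4, 7.53 and 13.8 CPM in AireKO (adjusted p = 0.392), with broad overlap. WT mTEClo ran from 0 to 9.19 CPM with a median of 1.6 CPM, 10.0-fold below mTEChi with 1 mTEClo library inside the mTEChi range (log2 3.33 ± 0.42, adjusted p = 4.7e-08). In neonates the Ctrl mTEClo libraries were at 5.40, 1.05 and 2.25 CPM, below all Ctrl mTEChi libraries, and mTEChi was 4.57-fold higher (log2 2.19 ± 0.78, adjusted p = 0.0316). With age in days as a term this was log2 1.64 and did not pass (adjusted p = 0.0853, range over all alternatives 0.00305 to 0.138), and it was lost without Ctrl mTEClo replicate 2 or 3 or Ctrl mTEChi replicate 1 or 2, at log2 1.77, 2.13, 2.03 and 1.87.

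Of the 8 genes, 6 were called higher in neonatal Ctrl mTEChi than in mTEClo and none lower, against 20.7% of all tested genes called and 13.8% called higher. Besides Fezf2, Ttr and Resp18, these were Calb1 at 7.42-fold (log2 2.89 ± 0.64, adjusted p = 0.00158), Fabp9 at 3.34-fold and Apoc3 at 2.68-fold (log2 1.42 ± 0.40, adjusted p = 0.00847). Resp18 was 4.75-fold higher (log2 2.25 ± 0.52, adjusted p = 0.00203). The Fabp9 call (log2 1.74 ± 0.62, adjusted p = 0.0303) was lost without Ctrl mTEClo replicate 2 or 3 or Ctrl mTEChi replicate 3 or 4, at log2 1.46, 1.56, 1.65 and 1.57.

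With Aire already absent, removal of EED in mTEChi gave 4 of the 8 genes called, 3 lower (Apoc3, Fabp9 and Ttr) and 1 higher (Calb1), against 9.47% of all genes called and 2.78% called lower. With EED already absent, removal of Aire gave 3 of 8 called, all higher (Resp18, Maoa and Calb1), against 13.3% called and 4.99% called higher. In mTEClo the latter comparison gave 3 of 8 called, all higher (Fezf2, Resp18 and Calb1), against 5.3% called and 3.45% called higher. That mTEClo count was 0 with only the groups compared and 1 with a replicate block, and 1 without EEDcKO replicate 1 or AireEEDdKO replicate 1 or 2. None of the 8 was called for the Aire by EED interaction, where 1.25% of all genes were. At an unadjusted p under 0.05 the interaction held 3 of the 8, Resp18, Maoa and Calb1, against 16.4% of all genes, and DESeq2 called 0 of the 8. These comparisons share their AireKO, EEDcKO and AireEEDdKO libraries. In mTEChi the AireEEDdKO libraries came from pups of 4, 6 and 4 days, and the EEDcKO libraries from pups of 6, 2 to 3 and 1 days.

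**Figure D3:**
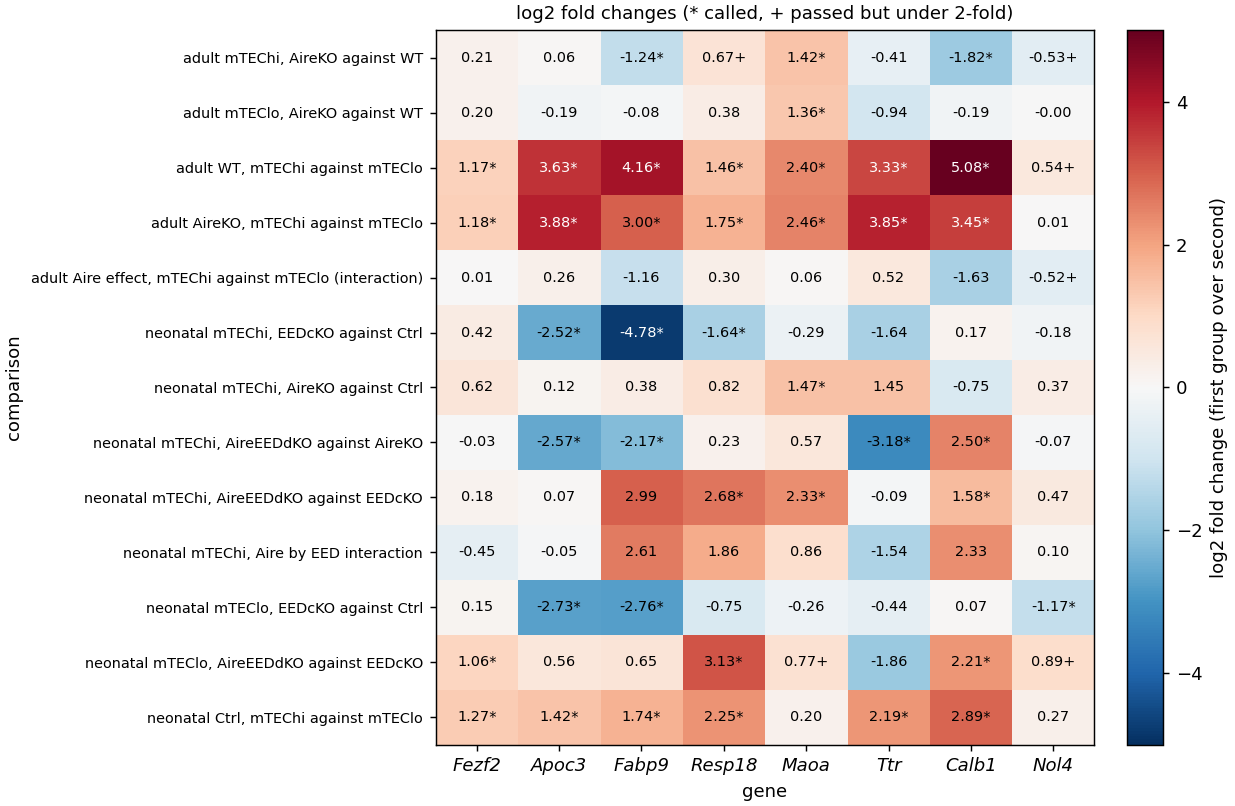
log2 fold changes of the 8 genes (columns) in the 13 comparisons (rows), first group over second, on a color scale from -5 to 5, with an asterisk for called genes and a plus for genes that passed under 2-fold. Fezf2 is called in the 3 comparisons of mTEChi against mTEClo and in mTEClo AireEEDdKO against EEDcKO, and Apoc3 is called lower in each comparison that removes EED.

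**Figure D4:**
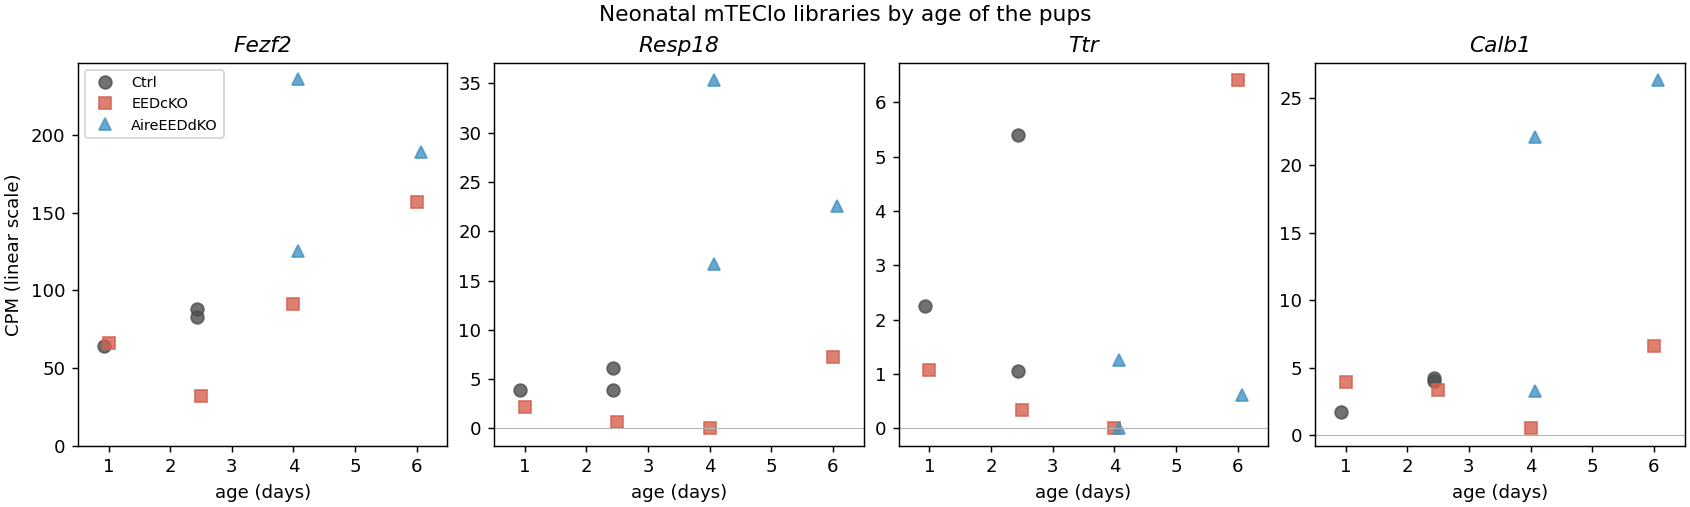
Level in CPM (linear axis) of 4 genes in the 10 neonatal mTEClo libraries against the age of the pups in days, with libraries of 2 to 3 days drawn at the middle of that range and groups set slightly apart sideways. The EEDcKO library of 6 days has the highest EEDcKO value of all 4 genes, and no Ctrl library is older than 3 days.

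In the plot by age, the EEDcKO mTEClo library from pups of 6 days (replicate 3) had the most Fezf2 (157 CPM), Resp18 (7.25 CPM), Ttr (6.40 CPM) and Calb1 (6.61 CPM) of its group. Age and library cannot be told apart there, as each age has 1 EEDcKO library. Without this library the log2 difference of Fezf2 between AireEEDdKO and EEDcKO was 1.52, and that between EEDcKO and Ctrl was -0.31, against 0.15 with it.

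The machinery around Fezf2 was read from lists of partners and upstream genes. Fezf1, its paralog, was at 6.64 ± 2.02 CPM in adult WT mTEChi (n = 7) and 11.7 ± 3.06 CPM in mTEClo (n = 8), and in adult AireKO it was 2.96-fold lower in mTEChi than in mTEClo (log2 -1.56, adjusted p = 9.38e-05). In neonatal mTEChi Fezf1 was called higher in EEDcKO, at 17.4 ± 2.4 CPM (n = 3) against 6.83 ± 1.42 CPM in Ctrl (n = 5; log2 1.34, adjusted p = 0.0343), and in AireEEDdKO against AireKO (15.3 ± 8.78 against 2.53 ± 1.03 CPM, n = 3 each; log2 2.69, adjusted p = 0.00935).

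Of 11 genes for Chd4 and the other NuRD subunits, all tested, 1 was called lower (Mta1, log2 -1.16) and none higher in adult WT mTEChi against mTEClo. There 12.4% of all genes were called lower. In all, 6 of the 11 passed lower and 2 higher, against 33.7% and 36.8% of all genes. Mta1, a histone deacetylase-associated subunit, was also the only one called in the neonatal Ctrl comparison of the fractions (log2 -1.14). In adult mTEChi AireKO against WT no NuRD gene was called, and 7 passed under 2-fold, among them Chd4 (log2 -0.61), Mta3 (0.58), Gatad2a (0.49) and Hdac2 (-0.80), 3 higher and 4 lower in all, against 26.6% of all genes passing higher and 28.8% lower. In EEDcKO mTEChi 4 passed higher and 3 lower, none called, against 19.1% and 13.6% of all genes, led by the histone-binding Rbbp7 (log2 -0.92), which is shared with PRC2, and by Gatad2a (0.91). Chd4 itself stayed between 328 and 454 CPM in all mTEChi libraries other than adult AireKO, where it ran from 244 to 290 CPM.

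Of 8 receptor and noncanonical NF-kB genes, 7 passed higher and none lower in adult mTEChi AireKO against WT, where 26.6% of all genes passed higher, with Map3k14 (NIK, the kinase of the pathway) called at log2 1.05 and Traf6, Traf3 and Relb at 0.48, 0.49 and 0.81. In neonatal mTEChi AireKO 5 passed higher and none lower, with none called, where 13.3% of all genes passed higher, led by Traf6 (0.82), Nfkb2 (0.78) and Relb (0.79). Between fractions of adult WT, Cd40, a receptor for T cell help, was called higher in mTEChi (log2 2.22) with Traf6 (1.22), and Ltbr, the lymphotoxin beta receptor, was called lower (-1.16). Of all genes, 23.7% were called higher and 12.4% lower there. Ltbr was the only one called in EEDcKO mTEChi against Ctrl, at 62.8 ± 12.1 CPM (n = 3) against 22.1 ± 6.21 CPM (n = 5; log2 1.50, adjusted p = 1.24e-05). In that comparison 8.48% of all genes were called higher. Tnfrsf11a, which encodes RANK, ran from 435 to 821 CPM in all mTEChi libraries.

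As a reference, 4 of 7 genes known as Aire-dependent antigens were tested in adult mTEChi, and 3 of them were called lower in AireKO: Muc6 (log2 -4.38), Tff3 (-4.99) and Ins2, which was at 4.34 to 15.8 CPM in WT and had no count in AireKO. The other tested gene did not pass, and 17.8% of all genes were called lower. The 6 list genes with a symbol summed to 436 to 531 CPM in AireKO against 404 to 700 CPM in WT. In AireKO 3 of these 6 had no count in any library, and Muc6 and Tff3 were called lower. The sum therefore rests on few of its genes and does not describe the list as a whole. In neonatal mTEChi AireKO the same 3 were called lower, Muc6 at log2 -3.02, Tff3 at -2.02 and Ins2 from 5.39 to 9.56 CPM in Ctrl to no count. Here too the other tested gene did not pass, and 12.8% of all genes were called lower. The list summed to 360 to 758 CPM in neonatal mTEChi AireKO against 369 to 547 CPM in Ctrl, and again 3 of the 6 had no count in AireKO. Of the 8 genes followed here, none was called lower in neonatal mTEChi AireKO and 2 were in adults, Calb1 and Fabp9. In EEDcKO mTEChi none of the 4 tested Aire-dependent genes was called, at a median log2 difference of -0.49, against -0.96 over the 8 genes and 0 over all genes.

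The 5 protein-coding genes whose levels were most like those of Fezf2 were Micall2, Inf2, Sspo, Rap1gap and Runx3. Likeness was the lower of 2 Pearson correlations of log2 CPM, over the 23 adult and over the 24 neonatal libraries, among 15376 genes tested in both tables, and it was 0.957, 0.953, 0.951, 0.950 and 0.950 in that order. The libraries share fractions and genotypes, so these values describe the pattern over groups and carry no test. Among the antigens the lower correlation was 0.777 for Calb1, 0.776 for Resp18, 0.554 for Nol4, 0.542 for Ttr, 0.538 for Maoa, 0.389 for Apoc3 and 0.354 for Fabp9, and Calb1 ranked at 595 of the 15376. Aire stood at -0.116 in neonates and 0.497 in adults, values that include the AireKO and AireEEDdKO libraries, where Aire was removed by design. Runx3, a Runt family transcription factor, was at 153 ± 28 CPM in adult WT mTEChi (n = 7) and 25.4 ± 7.17 CPM in mTEClo (n = 8), and Sspo, which encodes the large secreted protein SCO-spondin, at 2043 ± 473 and 415 ± 84 CPM.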

How the data were processed

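RNA-seq libraries were made from sorted adult and neonatal mTECs, and counts per gene were deposited by the authors in 1 table per age. Per the labels and the study's methods, the authors trimmed reads with fastp 0.20.0, aligned them to mm10 with STAR 2.7.3a, handled alignments with SAMtools 1.9 and Picard 2.21.1 and counted them with HTSeq 0.11.2. Rows were named by Ensembl gene identifiers, which were matched to symbols of the GRCm38 annotation.

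Each table was fitted on its own in R 4.3.3 with edgeR 4.0.16: genes were kept by filterByExpr (19310 of the adult and 20196 of the neonatal table), libraries were scaled by TMM, all groups of a table shared one estimate of the spread, and contrasts of group means were tested by the quasi-likelihood F-test with Benjamini-Hochberg adjustment over all kept genes. Sex and age were not terms of this fit. The fit was tested on simulated data first. Alternatives changed 1 choice each: DESeq2's RLE factors or bare library sizes for scaling, the filter dropped or set at 10 counts, no minimum change, a replicate block, age, male libraries alone, libraries of 1 mitochondrial kind, only the groups compared, DESeq2 1.42.0, and each library left out in turn.

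The 8 genes and all gene lists were chosen with earlier results of these data known, so counts over them are descriptions. The genes named are the 8, Aire and Eed, up to 4 genes of a list with the smallest adjusted p in the comparison spoken of, and the 5 genes most like Fezf2; Chd4, Tnfrsf11a, Epcam and members of the enterocyte and cortical lists were also named outside that rule after their values were seen. The lists used were NuRD partners with the paralog Fezf1, receptors and noncanonical NF-kB genes, Aire-dependent antigens (of which Spt1 matched no symbol), and markers of mTECs, enterocytes, endocrine cells, tuft cells, neurons, keratinocytes, ciliated cells, cortical epithelium, mesenchyme, thymocytes, endothelium and myeloid cells. Intervals of count ratios are exact at 95% and cover counting error only.

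Replicate numbers were checked by whether libraries of the same number deviated together from their group means. They did in 2 comparisons, adult AireKO mTEChi against mTEClo (4 pairs, correlations of 0.145 to 0.238) and neonatal mTEChi AireEEDdKO against AireKO (3 pairs, 0.122 to 0.226), and not in the others. In adult WT and neonatal Ctrl, the same number often named mice of different age or sex in mTEChi and mTEClo. A pairing across different numbers could therefore not be seen, and the replicate block joined unlike mice there. No 2 libraries agreed within sampling noise. The labels name mice by age and sex, some libraries pooled pups, and p-values measure the spread between these libraries.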

Additional observations from a re-analysis of the deposited data

Results flagged for a closer look

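In 4 of 48 sets of values (8 genes in 6 groups of 4 to 8 libraries), 1 library stood apart from the rest by Dixon's test. For normally distributed values chance alone does this in about 1 of 20 sets, a rate that need not hold for the low counts flagged here. Ttr in adult mTEClo of WT was at 9.19 CPM (16 counts) in replicate 1 and at 0 to 2.7 CPM in the other 7 libraries. Calb1 in the same group was at 3.05 CPM (10 counts) in replicate 6 and at 0 to 1.27 CPM elsewhere. In neonatal mTEClo of EEDcKO, replicate 3, from pups of 6 days, stood apart for Ttr at 6.4 CPM (30 counts, against 0 to 1.08 CPM) and for Fabp9 at 0.426 CPM (2 counts, against none).

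The Aire effect on Nol4 differed between adult fractions by -0.52 on the log2 scale in the test of that difference: AireKO mTEChi was at 61.9 ± 3.33 CPM (SD, n = 4) against 89.1 ± 8.98 CPM in WT (n = 7), and AireKO mTEClo at 62.6 ± 13.9 CPM (n = 4) against 61.5 ± 9 CPM (n = 8).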

How the results depend on the processing

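Of 47 results on the 8 genes that passed, 34 did so in the same direction under every alternative run and none turned its direction; of 19 that did not pass, 6 stayed so in the same direction and 5 changed sign under some alternative. The cause was not tested for any of these changes. With no minimum change, the number of the 8 genes called was 5 in place of 3 in adult mTEChi AireKO against WT, 1 in place of 0 for the adult difference between fractions, and 5 in place of 3 in neonatal mTEClo AireEEDdKO against EEDcKO. With libraries of 1 mitochondrial kind it was 0 in place of 1 in adult mTEClo. With no filter, and likewise with only the groups compared, it was 2 in place of 1 in neonatal mTEChi AireKO against Ctrl and 2 in place of 0 for the Aire by EED interaction, and with only the groups compared it was 1 in place of 3 in neonatal mTEClo EEDcKO against Ctrl and 0 in place of 3 in mTEClo AireEEDdKO against EEDcKO. Leaving out 1 library at a time gave 0 to 1 for the adult difference between fractions, 1 to 2 in neonatal mTEChi AireKO, 0 to 1 for the interaction and 1 to 4 in mTEClo AireEEDdKO against EEDcKO.

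With a replicate block the mTEClo AireEEDdKO against EEDcKO count was 1, in groups whose numbers did not pair the libraries. Where they did, the block called the same 7 genes in adult AireKO mTEChi against mTEClo and lost Fabp9 in neonatal mTEChi AireEEDdKO against AireKO; it changed no other call of these 2 comparisons.

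The Fezf2 difference of the adult Aire effect was -0.048 with RLE factors and with DESeq2, -0.17 with library size alone, -0.034 with the filter at 10 counts, -0.029 with male libraries, -0.013 with the replicate block, and -0.068 to 0.076 without 1 library. In neonates Fezf2 was 0.013 with library size alone and -0.19 to 0.11 without 1 library for AireEEDdKO against AireKO, -0.061 with age for AireEEDdKO against EEDcKO, and -0.10 with age and -0.31 to 0.42 without 1 library for mTEClo EEDcKO against Ctrl. Ttr in mTEClo AireEEDdKO against EEDcKO ran from -2.61 to 0.42 without 1 library. Genes of the partner, receptor and marker lists were fitted with the main settings alone.

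Depth limits Fabp9, Apoc3, Calb1 and Ttr in mTEClo, where most libraries held few counts. Neonatal ages were spread unevenly over groups, so that in neonatal mTEChi Aire genotype and age were partly mixed. In adult mTEChi library kind and genotype cannot be told apart.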
